A study of Mus musculus with 6 samples.

Results

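Chemokines and cytokines are secreted or membrane-bound proteins through which immune and brain cells signal to each other. The genes described here are 36 mouse genes of this kind, chosen by name and matched by symbol to the gene identifiers of the count tables, out of 53379 identifiers in all. All 36 were found: 24 ligands (9 CC chemokines, 7 CXC or CX3C chemokines, 7 interleukins or interleukin antagonists and Tnf) and 12 receptors. RNA sequencing covered 6 libraries of cerebral cortex from C57BL/6 mice aged 2 months, 3 from wild type mice (replicates 1, 3 and 4) and 3 labelled GTF2ird1-/- (replicates 5, 6 and 7), called labelled knockout below. The series title describes the cells as Gad2+ neurons. The sources used here give no Cre line, reporter, sorting step or allele. Nor do they tie a library to an animal, and a p-value here reflects the spread between libraries alone, which may be technical.

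Chemokines bind receptors coupled to G proteins and guide cell movement, and are named for the spacing of their first cysteines (CC, CXC, CX3C). In brain, microglia, the resident macrophages, make CC chemokines such as Ccl3 and Ccl4 and the cytokines Il1a, Il1b and Tnf, whereas astrocytes and neurons make others, such as Cxcl14 and Cx3cl1. Genes for Tnf, Il1b, Cxcl2 and similar proteins are known to be switched on quickly when receptors for danger signals activate NF-kB, while many cytokine receptors are transcribed steadily.

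The libraries held 13627501 to 30544144 gene counts. Levels are given as CPM, counts scaled to library size with TMM, and the limit set by a count of 0 (3 counts) was 0.0937 to 0.272 CPM. Gtf2ird1, the gene named by the genotype label, stood at 23.3, 31.5 and 52.7 CPM in the wild type libraries and at 49.7, 40.6 and 48.8 CPM in those labelled knockout, so its total count did not separate the labels. Which part of the gene the allele alters was not given in the sources used here. The 17 microglial markers summed to between 32651 and 52057 CPM, the 14 markers of GABAergic neurons, Gad1 and Gad2 among them, to between 260 and 1089 CPM. The sums are not scaled by gene length. Markers of the labelled cell type were thus present, beside far larger counts for microglial markers. In such bulk libraries, fewer cells of a type and less RNA per cell cannot be told apart.

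The stretch just upstream of the start site is shown first for 5 genes on which the results turn: 4 ligands whose wild type libraries spanned more than 10-fold, and Tnfrsf1b, the member with the smallest p-value. Sequences are from RefSeq (GRCm38.p6), 5′ to 3′ on the strand of the gene, and capitals mark matches to the kappaB consensus, the binding sequence of NF-kB, on either strand.

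Cxcl2 (chr5:90903649-90903870, plus strand): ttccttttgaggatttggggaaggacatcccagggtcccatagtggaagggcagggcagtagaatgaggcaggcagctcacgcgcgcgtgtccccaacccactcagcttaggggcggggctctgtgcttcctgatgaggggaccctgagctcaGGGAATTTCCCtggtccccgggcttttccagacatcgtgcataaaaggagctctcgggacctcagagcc
Cxcl10 (chr5:92348890-92349139, minus strand): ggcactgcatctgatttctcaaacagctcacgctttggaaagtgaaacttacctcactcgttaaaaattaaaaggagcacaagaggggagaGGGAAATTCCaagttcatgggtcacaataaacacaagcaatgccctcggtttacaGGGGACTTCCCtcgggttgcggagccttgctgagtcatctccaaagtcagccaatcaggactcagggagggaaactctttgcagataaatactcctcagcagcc
Ccl3 (chr11:83649379-83649628, minus strand): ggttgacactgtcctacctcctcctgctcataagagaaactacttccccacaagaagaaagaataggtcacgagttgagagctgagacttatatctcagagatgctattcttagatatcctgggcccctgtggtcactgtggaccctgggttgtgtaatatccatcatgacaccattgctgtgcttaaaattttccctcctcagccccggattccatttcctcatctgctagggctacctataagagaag
Il1b (chr2:129371140-129371389, minus strand): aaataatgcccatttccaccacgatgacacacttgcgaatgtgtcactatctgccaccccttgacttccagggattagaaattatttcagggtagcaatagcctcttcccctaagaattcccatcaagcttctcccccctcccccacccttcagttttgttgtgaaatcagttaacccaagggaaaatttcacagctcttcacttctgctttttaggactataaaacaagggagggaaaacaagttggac
Tnfrsf1b (chr4:145246871-145247120, minus strand): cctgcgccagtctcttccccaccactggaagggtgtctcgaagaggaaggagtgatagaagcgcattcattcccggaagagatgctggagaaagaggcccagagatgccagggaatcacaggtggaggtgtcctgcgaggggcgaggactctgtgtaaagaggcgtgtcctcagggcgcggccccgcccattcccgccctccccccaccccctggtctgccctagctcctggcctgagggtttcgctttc

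Cxcl2 held GGGAATTTCC from 97 to 88 bases before its RefSeq start. Only 222 bases of its window are shown, because the annotated gene begins upstream of that start. The printed sequence therefore ends short of the point from which these positions are counted. Cxcl10 held GGGAAATTCC and, nearer the start, GGGGACTTCC, while the windows of Ccl3, Il1b and Tnfrsf1b held no match. The table had windows for 27 of the 36 genes and not for Il10ra, Ccl4, Ccl5, Il10, Il10rb, Cxcl16, Ccl2, Ccl24 and Ccl7. A kappaB match lay in a window of 9 of these 27 genes (Ccl9, Ccr1, Ccr6, Cxcl1, Cxcl2, Cxcl10, Il16, Il1r1 and Il6). Over all 32851 windows of 250 bases, 7.25% held one. Members were counted by gene, with a match in any window, and the background by window, so these shares are unlike measures. Such a match lay in 2 of 6 genes with windows whose wild type levels spanned more than 10-fold. It lay in 7 of 20 other tested genes with windows. The AP-1 sequence TGANTCA was found in 6 of the 27 genes (6.75% of all windows). The ETS core GAGGAA was found in 9 (23.3%) and TATAAA in 8 (12.4%), each searched on both strands. These matches describe the letters in the windows only.

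No member passed the test between the labels. Of the 36 genes, 33 had enough counts for edgeR's quasi-likelihood test, and 0 had an adjusted p under 0.05, against 0.00581% of the 17221 genes tested. DESeq2 and limma-voom also called 0 members. An unadjusted p under 0.05 was found for 2 members, Tnfrsf1b and Ccr6, both lower in the libraries labelled knockout. That is 6.06% of the tested members, beside 2.77% of all genes lower with such a p and 7.25% in either direction. The adjusted p-values of the 33 members ranged from 0.637 to 0.995. The median log2 fold change of labelled knockout over wild type was 0.01 for the members and -0.03 for all genes.

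**Figure D1:**
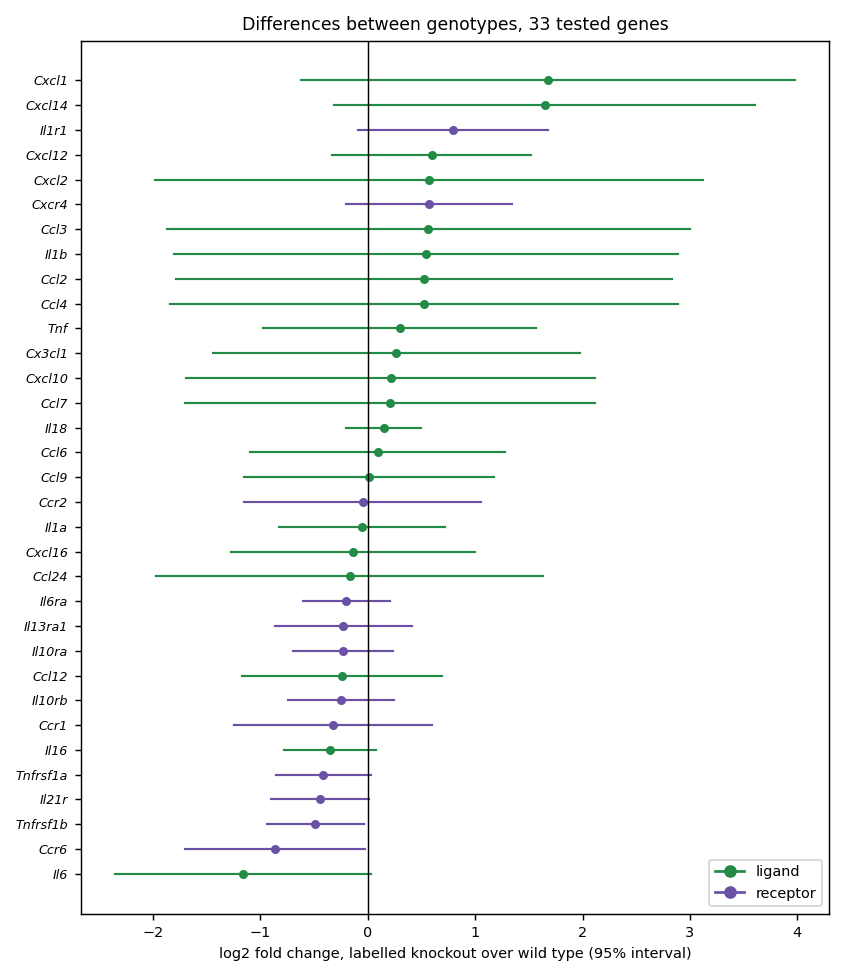
Log2 fold change of labelled knockout over wild type for the 33 tested members, with 95% intervals from edgeR's quasi-likelihood test on 3 libraries per group, ligands in green and receptors in purple. The intervals of Tnfrsf1b and Ccr6 alone stay below 0. Those of Cxcl2, Ccl3, Ccl4, Il1b, Ccl2 and Cxcl1 span more than 4 log2 units.

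Ligands and receptors differed in how far they varied between libraries of the same label. The SD of log2 CPM over the 3 wild type libraries had a median of 1.75 for the 21 tested ligands and 0.34 for the 12 receptors, and 0.37 over all genes tested. Over the libraries labelled knockout, the same median was 0.19 for ligands, 0.25 for receptors and 0.22 for all genes. The wild type SD was the larger of the pair for 21 of 21 ligands and 8 of 12 receptors, beside 74.0% of all genes. All 3 libraries labelled knockout lay inside the wild type range for 15 of 21 ligands, including 8 of the 8 tested CC chemokines, and for 54.5% of the members in all, beside 32.0% of all genes. These counts are given with no test, and levels of ligands made by the same cells are not independent of each other.

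**Figure D2:**
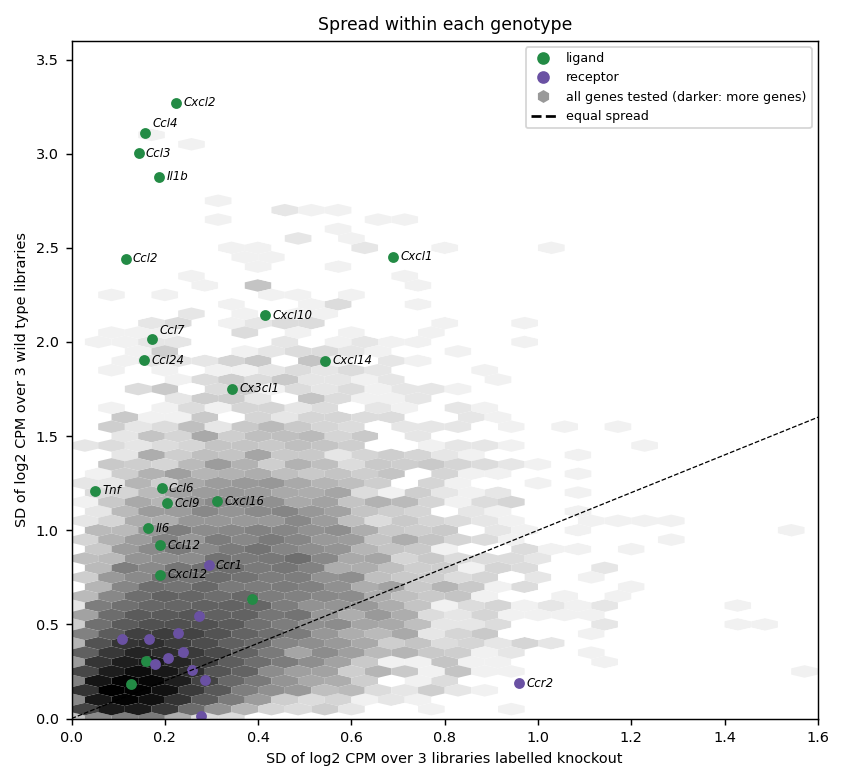
SD of log2 CPM over the 3 libraries labelled knockout (x axis) and over the 3 wild type libraries (y axis), with ligands in green, receptors in purple and all genes tested in grey. Ligands such as Cxcl2, Ccl4, Ccl3 and Il1b lie far above the dashed line of equal spread, Ccr2 lies below it, and 67 genes lie outside the axes.

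Among the CC chemokines, Ccl3 and Ccl4 had the highest mean levels per kilobase of exon. These genes encode the macrophage inflammatory proteins 1-alpha and 1-beta, and lie near each other on chromosome 11 (GRCm38, Ccl3, ENSMUSG00000000982, chr11:83647844-83649355 and Ccl4, ENSMUSG00000018930, chr11:83662584-83664683). Ccl3 stood at 196, 44.9 and 3.20 CPM in wild type replicates 1, 3 and 4, against 115, 135 and 113 CPM in replicates 5, 6 and 7, an order kept for all values below. Ccl4 followed with 194, 75.6 and 3.14 CPM in wild type, against 122, 148 and 123 CPM in labelled knockout. For both genes, wild type replicate 1 was the highest and replicate 4 the lowest of all 6 libraries, and the 3 libraries labelled knockout lay close together between wild type replicates 1 and 3. Ccl3 gave 81.5 ± 102 CPM in wild type, against 121 ± 12.4 CPM in labelled knockout (SD, n = 3 each), with a log2 fold change of 0.56 ± 1.04 (SE) with an adjusted p of 0.873 in edgeR. Ccl4 gave 91.0 ± 96.5 and 131 ± 14.7 CPM, a log2 fold change of 0.52 ± 1.01 and an adjusted p of 0.878 in edgeR. Ccl3 had 5642 counts in wild type replicate 1 and 56 in replicate 4. That is a ratio of 61.4 after scaling (exact Poisson 95% interval 47.2 to 81.4, counting error only). The cause of the wild type range was not tested.

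Ccl2, Ccl7 and Ccl12 encode chemokines that draw monocytes through Ccr2, and showed the same order of the wild type libraries. Ccl2 (ENSMUSG00000035385, chr11:82035571-82037453) stood at 79.6, 8.43 and 2.85 CPM in wild type and at 42.1, 48.3 and 42.0 CPM in labelled knockout. Its wild type libraries spanned 27.9-fold and those labelled knockout 1.15-fold. The log2 fold change was 0.52 ± 0.99 (adjusted p = 0.876 in edgeR). Ccl7 ranged from 1.598 to 26.4 CPM in wild type and from 11.4 to 14.5 CPM in labelled knockout. Ccl12 stood at 29.8, 23.9 and 8.96 CPM and at 15.8, 20.4 and 17.1 CPM, a log2 fold change of -0.24 ± 0.40 (adjusted p = 0.860 in edgeR). None of the 3 genes separated the labels.

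Ccl6 and Ccl9 are rodent chemokines that signal through Ccr1. Ccl9 stood at 227, 95.6 and 46.7 CPM in wild type and at 143, 108 and 123 CPM in labelled knockout, and its log2 fold change was 0.01 ± 0.50 (adjusted p = 0.995 in edgeR). Ccl6 ranged from 15.3 to 82.3 CPM in wild type and from 43.0 to 55.6 CPM in labelled knockout. The ratio of Ccl9 to Ccl6 stayed between 2.21 and 3.05 in all 6 libraries, a narrower range than that of either gene. Ccl9 shares at least 95% identity over at least 100 bases with annotated transcripts of 24 other genes, so part of its count could have been assigned elsewhere. Ccl24, eotaxin-2, a ligand of Ccr3, stood at 48.3, 12.4 and 3.42 CPM in wild type and at 19.6, 17.0 and 20.96 CPM in labelled knockout. Its gene (chr5:135569937-135573049) lies 1113221 bases from Gtf2ird1, and its log2 fold change was -0.17 ± 0.77 (adjusted p = 0.950 in edgeR). Ccl5, which attracts T cells and monocytes, had between 1 and 8 counts in each library and was not tested.

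In every tested CC chemokine, 8 of 8, wild type replicate 1 was the highest and replicate 4 the lowest of the 6 libraries. Over all 33 tested members this order held for 14, all of them ligands, or 42.4%, beside 10.2% of all genes tested.

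**Figure D3:**
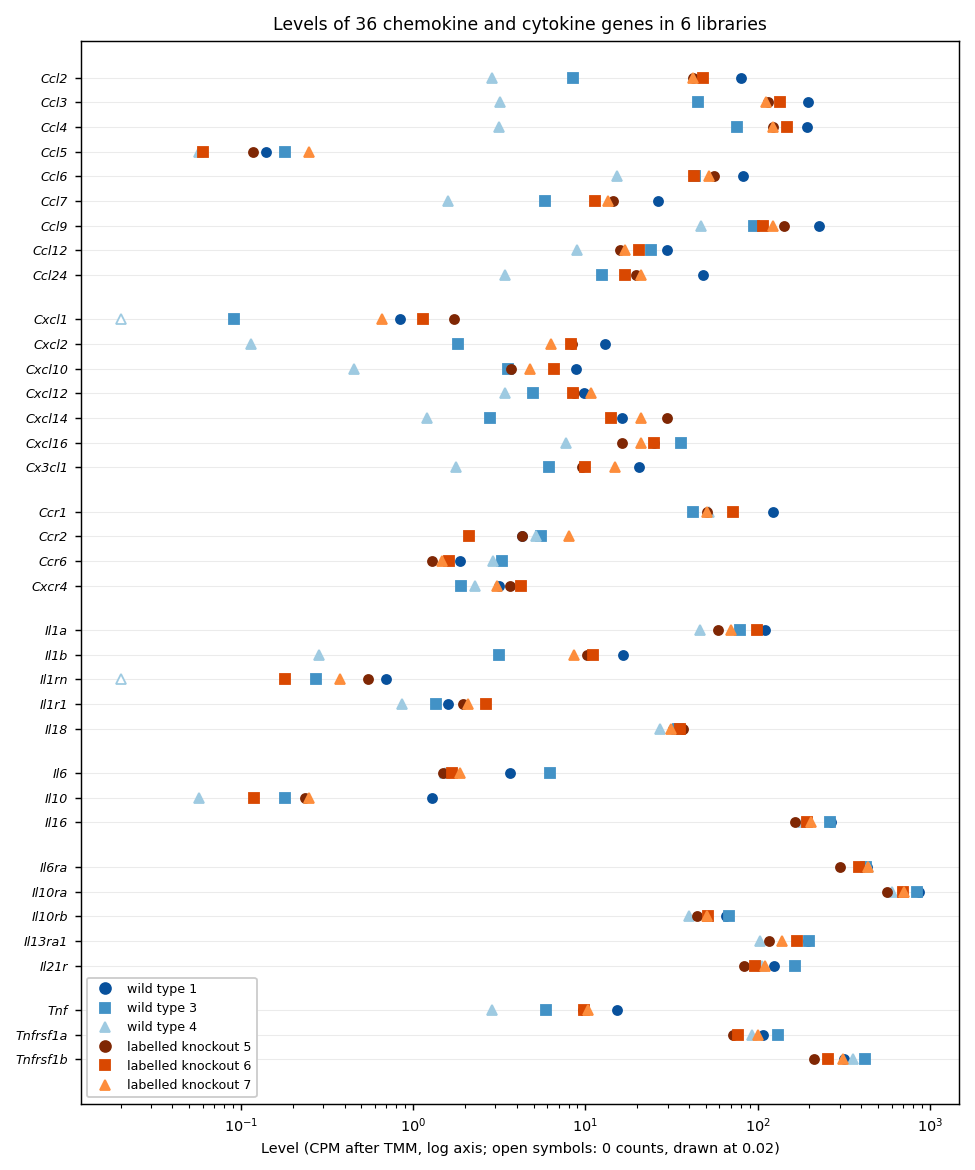
Level of each of the 36 genes in the 6 libraries (CPM after TMM, log axis), with wild type in blue and labelled knockout in orange and brown. For Ccl2, Ccl3, Ccl4, Cxcl2 and Il1b the blue points spread over more than a 10-fold range while the orange and brown points sit together inside it, and the receptors in the lower rows spread little.

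Among the CXC chemokines, Cxcl2 varied most within wild type. Cxcl1 and Cxcl2 attract neutrophils through Cxcr2. Cxcl2 stood at 13.1, 1.81 and 0.114 CPM in wild type and at 8.33, 8.27 and 6.34 CPM in labelled knockout. Its counts in wild type replicates 1 and 4 were 376 and 2, a ratio of 115 after scaling with an exact Poisson 95% interval of 31.5 to 950 (counting error only). The intervals of Ccl3 and Il1b overlap it, so the order of the widest ranges is not fixed. The log2 fold change of Cxcl2 was 0.57 ± 1.09 (adjusted p = 0.876 in edgeR). Its transcript shares 98.3% identity over 116 bases with Cxcl3, which had 0 counts in 4 libraries and 2 and 1 in replicates 6 and 7. Cxcl1 had 24, 1 and 0 counts in wild type and 44, 19 and 21 counts in labelled knockout, with overlap at replicates 1 and 7 (0.835 and 0.656 CPM). Its log2 fold change of 1.68 ± 0.98 rested on these low counts (adjusted p = 0.650 in edgeR). It was 4.81 without wild type replicate 1 (adjusted p = 0.0774) and 1.10 without replicate 4.

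Cxcl14 and Cxcl12 had a different order. Cxcl14 (ENSMUSG00000021508, chr13:56288643-56296551), a chemokine of the CXC class known from epithelia and brain, stood at 16.2, 2.81 and 1.198 CPM in wild type and at 29.9, 14.1 and 21.1 CPM in labelled knockout. The groups overlapped only through wild type replicate 1, which lay above replicate 6. Group means were 6.75 ± 8.26 and 21.7 ± 7.95 CPM (SD, n = 3 each), and the log2 fold change was 1.65 ± 0.84 (adjusted p = 0.637 in edgeR). Cxcl12, the ligand of Cxcr4 and Ackr3, stood at 9.81, 4.98 and 3.42 CPM in wild type and at 8.60, 8.45 and 10.7 CPM in labelled knockout. Here too wild type replicate 1 lay among the libraries labelled knockout, and the log2 fold change was 0.60 ± 0.40 (adjusted p = 0.672 in edgeR).

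Some marker lists of other cells had an order like that of Cxcl14, and others did not. The sum of 14 astrocyte markers was 3699, 645 and 301 CPM in wild type, against 6551, 3619 and 4083 CPM in labelled knockout, with all 14 tested and none at 0 in every library. The sum of 13 oligodendrocyte markers, all tested, was 2514, 567 and 175 CPM in wild type and between 2087 and 2594 CPM in labelled knockout. The astrocyte sum was highest in replicate 5, as Cxcl14 was, and both sums were lowest in wild type replicate 4. Endothelial, mural cell and fibroblast, and glutamatergic neuron sums were also lowest there, at 90.1, 16.55 and 26.4 CPM. The glutamatergic sum was nearly as low in wild type replicate 3, at 26.8 CPM. The oligodendrocyte precursor sum was instead lowest in wild type replicate 3, at 15.0 CPM against 72.6 CPM in replicate 4. The GABAergic and pan-neuronal sums were highest of wild type in replicate 4, at 848 and 714 CPM. The part of these lists in the levels of Cxcl14, Cxcl12 and Cxcl1 was not tested.

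Cxcl10, Cxcl16 and Cx3cl1 showed no separation of the labels. Cxcl10, an interferon-induced ligand of Cxcr3, ranged from 0.457 to 8.80 CPM in wild type and from 3.71 to 6.59 CPM in labelled knockout. Cx3cl1, fractalkine, a membrane-bound ligand made mainly by neurons in brain, stood at 20.4, 6.16 and 1.77 CPM in wild type and at 9.58, 10.01 and 14.8 CPM in labelled knockout (log2 fold change 0.26 ± 0.73, adjusted p = 0.916 in edgeR). The sum of 12 pan-neuronal markers did not have that order, at 404, 250 and 714 CPM in wild type, against 911, 720 and 510 CPM in labelled knockout. Cxcl16, a transmembrane ligand of Cxcr6, was highest in wild type replicate 3 at 35.9 CPM and ranged from 7.76 to 25.1 CPM in the other 5 libraries. Zmynd15, whose exons overlap 18.3% of the exon bases of Cxcl16 on the opposite strand, was also highest there, at 11.2 CPM against 2.54 to 4.28 CPM elsewhere. The strand setting of the counting was not given in the sources used here. How reads within the overlap were assigned therefore cannot be told.

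Chemokine receptors varied less than the chemokines within wild type, while within labelled knockout they lay between the 2 chemokine classes. The median SD of log2 CPM over the libraries labelled knockout was 0.27 for the 4 chemokine receptors. It was 0.17 for the CC chemokines and 0.34 for the CXC or CX3C chemokines. Ccr1, a receptor of Ccl3, Ccl5, Ccl6 and Ccl9, stood at 123, 42.1 and 52.2 CPM in wild type and at 51.1, 72.4 and 50.7 CPM in labelled knockout (log2 fold change -0.32 ± 0.39, adjusted p = 0.805 in edgeR). Wild type replicate 1 was high for Ccr1 as it was for the ligands, but replicate 4 was not low. Ccr2, the monocyte receptor of Ccl2, stood at 4.31, 5.53 and 5.19 CPM in wild type and at 4.26, 2.10 and 8.03 CPM in labelled knockout (log2 fold change -0.05 ± 0.47, adjusted p = 0.977 in edgeR). Its spread was larger in labelled knockout, with replicate 7 the highest and replicate 6 the lowest of all libraries. Monocyte markers, of which 4 of 9 were tested, summed to between 102 and 352 CPM in wild type and between 216 and 326 CPM in labelled knockout. The median marker stood at only 0.209, 0.453 and 0.514 CPM in wild type and at 0.195, 0 and 0.156 CPM in labelled knockout. The sums thus came from a minority of the list.

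Ccr6, the receptor of Ccl20, stood at 1.88, 3.26 and 2.91 CPM in wild type and at 1.29, 1.62 and 1.47 CPM in labelled knockout. All 3 libraries labelled knockout lay below all 3 wild type libraries. Group means were 2.68 ± 0.719 and 1.46 ± 0.164 CPM (SD, n = 3 each), and the log2 fold change was -0.87 ± 0.36, with an adjusted p of 0.637 in edgeR. Between 27 and 54 counts per library lay behind these values. Ccl20 had 0 counts in all 6 libraries. Cxcr4 stood at 3.13, 1.90 and 2.28 CPM in wild type and at 3.67, 4.25 and 3.06 CPM in labelled knockout, overlapping only at replicates 1 and 7 (log2 fold change 0.57 ± 0.33, adjusted p = 0.650 in edgeR).

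Groups that did not overlap were seen for 3 of the 33 tested members. Il1r1 lay higher in labelled knockout, as did 6.34% of all genes, and Tnfrsf1b and Ccr6 lay lower, as did 6.68% of all genes.

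In the interleukin 1 family, the ligands Il1a and Il1b behaved unlike each other. Both activate the receptor Il1r1. Il1b stood at 16.6, 3.17 and 0.285 CPM in wild type and at 10.2, 11.1 and 8.62 CPM in labelled knockout, a wild type range of 58.3-fold (exact Poisson 95% interval 24.8 to 180, counting error only). Il1a stood at 111, 79.2 and 46.2 CPM in wild type and at 58.9, 99.5 and 69.8 CPM in labelled knockout, a wild type range of 2.40-fold. The log2 fold change was 0.54 ± 1.003 for Il1b (adjusted p = 0.873 in edgeR) and -0.05 ± 0.33 for Il1a (adjusted p = 0.965 in edgeR). Il18, a cytokine cut to its active form by caspase 1, had the narrowest wild type range of the tested ligands, between 27.0 and 34.4 CPM in wild type and between 31.3 and 37.1 CPM in labelled knockout. The antagonist Il1rn had between 0 and 20 counts and was not tested.

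Il1r1, the signalling receptor, stood at 1.601, 1.36 and 0.856 CPM in wild type and at 1.95, 2.64 and 2.09 CPM in labelled knockout. Every library labelled knockout lay above every wild type library. Group means were 1.27 ± 0.380 and 2.23 ± 0.360 CPM (SD, n = 3 each), with a log2 fold change of 0.79 ± 0.38 and an adjusted p of 0.637 in edgeR. Its co-receptor Il1rap ranged from 11.4 to 18.4 CPM in wild type and from 17.9 to 20.5 CPM in labelled knockout (log2 fold change 0.40 ± 0.22, adjusted p = 0.638 in edgeR). Brain endothelium is a known site of Il1r1, and 14 endothelial markers, all tested, summed to 198, 149 and 90.1 CPM in wild type and to 243, 185 and 234 CPM in labelled knockout. Their part in the Il1r1 values was not tested.

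Il6 had the lowest log2 fold change of the members with all 6 libraries. This cytokine, which signals through Il6ra and Il6st, stood at 3.65, 6.25 and 1.54 CPM in wild type and at 1.49, 1.68 and 1.87 CPM in labelled knockout. Wild type replicate 4 lay among the libraries labelled knockout, and replicates 1 and 3 lay above them. The log2 fold change was -1.17 ± 0.51, with an adjusted p of 0.637 in edgeR. It ranged from -1.53 without wild type replicate 4 to -0.63 without replicate 3, where Ccr6 at -0.70 was lower. Il16, which is made as a longer precursor and binds Cd4, stood at 268, 263 and 184 CPM in wild type and at 164, 193 and 203 CPM in labelled knockout. Group means were 238.4 ± 46.9 and 187 ± 20.2 CPM (SD, n = 3 each; log2 fold change -0.35 ± 0.18, adjusted p = 0.638 in edgeR). Stard5 overlaps 15.3% of the exon bases of Il16 on the opposite strand and stood between 9.34 and 13.3 CPM. Il10, an anti-inflammatory cytokine, had 37 counts in wild type replicate 1 and between 1 and 8 in the other 5 libraries, and was not tested.

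The 5 interleukin receptors other than Il1r1 spanned at most 1.93-fold within wild type. Their fold changes were negative, unlike that of Il1r1, and none passed the test. Negative values were also found for 53.7% of all genes. Il10ra (ENSMUSG00000032089, chr9:45253837-45269149), the ligand-binding chain of the Il10 receptor, stood at 870.5, 844 and 606 CPM in wild type and at 568, 695 and 713 CPM in labelled knockout (log2 fold change -0.23 ± 0.20, adjusted p = 0.725 in edgeR). Its partner chain Il10rb ranged from 40.2 to 68.2 CPM in wild type and from 44.7 to 51.2 CPM in labelled knockout. The ratio of Il10ra to Il10rb stayed between 12.4 and 15.1 in the 6 libraries.

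Il6ra stood at 429, 427 and 435 CPM in wild type, the narrowest wild type range of any member at 1.02-fold, and at 300, 390 and 436 CPM in labelled knockout. Replicate 5 was the low library (log2 fold change -0.20 ± 0.17, adjusted p = 0.728 in edgeR). Il6st, the signalling chain shared by the Il6 family, ranged from 517 to 637 CPM in wild type and from 474 to 621 CPM in labelled knockout. Il13ra1, which pairs with Il4ra, stood at 196, 199 and 103 CPM and at 116, 170 and 139 CPM (log2 fold change -0.23 ± 0.27, adjusted p = 0.803 in edgeR). Here wild type replicate 4 was the low library. Il21r, which signals with the common gamma chain, stood at 125, 164 and 105 CPM in wild type and at 83.0, 96.2 and 111 CPM in labelled knockout. Replicates 4 and 7 overlapped, and the log2 fold change was -0.45 ± 0.20, with an adjusted p of 0.637 in edgeR.

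For the TNF system, neither the ligand nor the receptors passed the test. Tnf stood at 15.3, 5.89 and 2.85 CPM in wild type and at 9.73, 9.77 and 10.4 CPM in labelled knockout, a 5.38-fold range in wild type and a 1.07-fold range in labelled knockout. Its log2 fold change was 0.30 ± 0.54 (adjusted p = 0.873 in edgeR) and -0.11 without wild type replicate 4. Tnfrsf1b (ENSMUSG00000028599, chr4:145213463-145246870), the receptor TNFR2 found on immune cells, stood at 317, 421 and 360 CPM in wild type and at 211, 257 and 314 CPM in labelled knockout. All wild type libraries lay above all libraries labelled knockout, although replicates 1 and 7 differed little. Group means were 366 ± 52.2 and 261 ± 51.4 CPM (SD, n = 3 each), a fold of 0.712 (95% interval 0.522 to 0.973) and an adjusted p of 0.637 in edgeR.

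Tnfrsf1a, the widely expressed receptor TNFR1 that carries a death domain, stood at 108, 132 and 92.3 CPM in wild type and at 71.8, 76.7 and 101 CPM in labelled knockout (log2 fold change -0.41 ± 0.19, adjusted p = 0.637 in edgeR). Replicate 7 lay inside the wild type range. The ratio of Tnfrsf1b to Tnfrsf1a was between 2.93 and 3.90 in all libraries. The 17 microglial markers, all tested, summed to 52057, 50408 and 32651 CPM in wild type and to 33379, 41750 and 37923 CPM in labelled knockout. Like that list, Tnfrsf1a, Il10ra, Il10rb, Il13ra1, Il21r, Il16, Il6, Ccl12 and Cxcl16 were higher in wild type replicates 1 and 3 than elsewhere. For Cxcl16 the margin was slight, at 25.053 CPM in wild type replicate 1 against 25.044 CPM in replicate 6. The part of the list in those values was not tested.

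**Figure D4:**
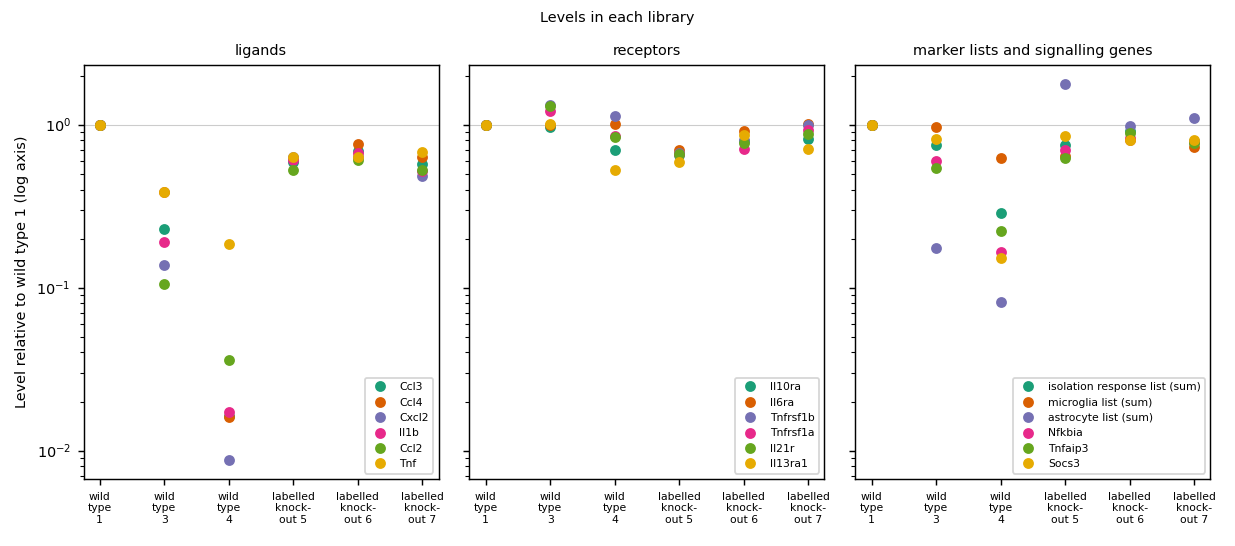
Level in each library relative to wild type replicate 1 (log axis), for 6 ligands, 6 receptors, and 3 marker list sums with 3 signalling genes. The ligands are lowest in wild type replicate 4, with Cxcl2 115-fold below replicate 1, the receptors stay near the level of replicate 1, and Nfkbia, Tnfaip3, Socs3 and the isolation response list are also lowest in replicate 4.

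Levels between genes were compared per kilobase of merged exons. Il10ra was highest with a mean of 205 CPM per kb (162 to 249 over the 6 libraries), followed by Ccl4 at 168 (4.76 to 294.5), Ccl3 at 132 (4.17 to 256) and Tnfrsf1b at 82.1 (55.4 to 110). The ranges of the first 3 overlap, so their order is not fixed. Il6ra, Il13ra1, Ccl9, Il1a, Tnfrsf1a and Ccl12 followed at 46.6, 41.4, 40.7, 39.2, 37.4 and 35.997 CPM per kb, neighbours that did not differ beyond their ranges. Ccl4 ranked 1, 2 and 15 among the 36 genes in wild type, against 1, 1 and 2 in labelled knockout, while Il10ra was never below rank 3. Il1rn was last at 0.0623 CPM per kb.

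The sign of the fold change turned with at least 1 library left out for 15 of the 21 tested ligands and 2 of the 12 receptors. The share over all genes is not given here. Among the ligands, Cxcl1, Cxcl12, Cxcl14, Il18, Il6 and Il16 kept theirs. Without wild type replicate 1, edgeR's test called Cxcl14 (log2 fold change 3.48 ± 0.50, adjusted p = 0.0371) and Ccl2 (2.999 ± 0.43, adjusted p = 0.0378) higher in labelled knockout, as it did 1.77% of all genes. An unadjusted p under 0.05 was then found for 15 of 33 members, or 45.5%, beside 18.6% of all genes. Of the 15, 13 were higher in labelled knockout, beside 10.8% of all genes higher with such a p. Without wild type replicate 4, no member was called, and 28 of 34 tested members had negative fold changes. In that fit 10 members had an unadjusted p under 0.05, all lower in labelled knockout. They were Il6, Il16, Il10rb, Il21r, Ccl12, Tnfrsf1a, Il13ra1, Tnfrsf1b, Cxcl16 and Il10ra. That is 29.4% of the tested members, beside 6.44% of all genes lower with such a p and 17.2% in either direction.

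The log2 fold change of Ccl3 was 2.35 without wild type replicate 1 and -0.003 without replicate 4, and that of Il1b was 2.62 and -0.03. The same held for Ccl4 (1.75 and -0.05), Cxcl2 (3.12 and -0.01), Ccl2 (2.999 and -0.02) and Tnf (1.21 and -0.11). By contrast, Tnfrsf1b stayed between -0.63 and -0.36 and Ccr6 between -1.08 and -0.70 whichever library was left out, and neither was called in any of those fits.

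**Figure D5:**
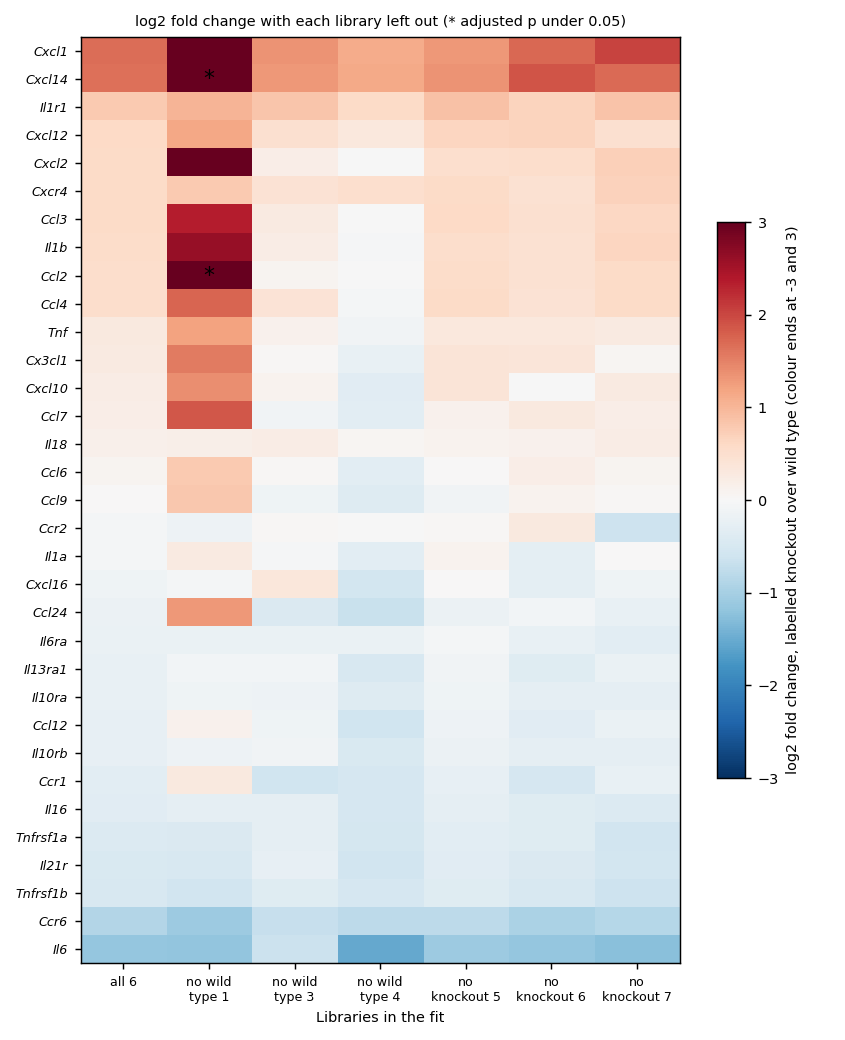
Log2 fold change of labelled knockout over wild type for the 33 tested members (rows) with all 6 libraries and with each left out in turn (columns), red for higher in labelled knockout and blue for lower. The column without wild type replicate 1 is the reddest, its stars mark Cxcl14 and Ccl2 with an adjusted p under 0.05, and the column without wild type replicate 4 is mostly blue.

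Other genes of these systems gave the setting in which the members were measured. A list of 182 further chemokine, cytokine, receptor and signalling genes had 107 tested genes, of which 0 were called by edgeR (0.00581% of all genes). An unadjusted p under 0.05 was found for 8, or 7.48%, beside 7.25% of all genes (4.48% higher and 2.77% lower). The median log2 fold change of the list was -0.19, with 35 positive and 72 negative, beside -0.03 for all genes. The 2 with higher levels in labelled knockout were Il17rd, a regulator of growth factor signalling, at 2.16, 0.997 and 1.313 CPM against 5.16, 2.76 and 3.998 CPM, and Cntfr, the receptor of ciliary neurotrophic factor, at 7.66, 2.45 and 4.45 CPM against 20.4, 7.79 and 14.8 CPM. The 6 with lower levels were the receptors Tnfrsf13b, Tnfrsf14 and Il4ra, the cytokine Clcf1 and the kinases Jak3 and Tyk2, with log2 fold changes between -0.83 and -0.39. All 8 had an adjusted p of 0.637 in edgeR.

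Receptors that bind members were measured beside them. Cx3cr1, the fractalkine receptor of microglia, stood at 5215, 5781 and 3512 CPM in wild type and at 3210.5, 4219.5 and 3920.5 CPM in labelled knockout. Cxcr2, the receptor of Cxcl1 and Cxcl2, was at most 0.970 CPM and was not tested, and Cxcr6 had 0 counts in every library. The 12 neutrophil markers, of which 1 was tested, summed to between 407 and 614 CPM in wild type and between 281 and 419 CPM in labelled knockout. That sum was almost all Csf3r, at 280.1 to 613 CPM, while S100a8 was at 0 in 4 libraries and at most 0.0599 CPM in the others.

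Nfkbia, and the summed list of genes known to be induced during tissue dissociation, were lowest in wild type replicate 4, as many of the ligands were. Nfkbia, which encodes the inhibitor of NF-kB and is itself an NF-kB target, stood at 207, 124 and 34.1 CPM in wild type and at 145, 172 and 161 CPM in labelled knockout. Tnfaip3 stood at 250, 135 and 55.6 CPM and at 156, 222 and 192 CPM, and Socs3, a feedback inhibitor of cytokine receptors, at 161, 131 and 24.4 CPM and at 138, 129.8 and 129.5 CPM. Tnfaip3 and Socs3 were named after their values were seen, and the NF-kB subunit genes did not share 1 order. Rel stood at 79.8, 83.5 and 90.1 CPM in wild type and at 57.2, 80.5 and 96.6 CPM in labelled knockout, and Nfkb1 and Relb were also not lowest in wild type replicate 4, whereas Nfkb2 was, at 32.6 CPM. The list of immediate early and isolation response genes, all 24 tested and none at 0, summed to 9610, 7220 and 2752 CPM in wild type and to between 7258 and 8783 CPM in labelled knockout. Fos, a member of that list, stood at 625, 167 and 72.4 CPM in wild type and at 539.5, 518 and 489 CPM in labelled knockout. The isolation method was not given in the sources used here, and the part of this list in the ligands' spread was not tested. The 10 markers of border-associated macrophages, all tested, summed to 1119, 342 and 434 CPM in wild type and to 694, 731 and 825 CPM in labelled knockout, with none at 0 in every library.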

How the data were processed

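Total RNA of 6 mouse libraries was sequenced with a stranded total RNA kit, per the labels' protocols. The values are raw read counts per gene, 1 deposited file per library, neither normalized nor pooled by the authors. Per the submitters' processing notes, Trim Galore 0.60, STAR 2.7, HTSeq 1.31 and mm10 were used. The annotation release and strand setting were not given in the sources used here. The 5 summary lines of each file, which name no gene, stayed out of totals and tests. Reads that the counting step assigned to no feature were 39.95% to 58.2% of the reads in its output. Whether they lay in introns or outside genes was not given. Ribosomal RNA genes took 17.5% of the gene counts of wild type replicate 3 and between 0.0473% and 6.2% elsewhere.

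Identifiers were matched to GENCODE M21 (GRCm38, the assembly also named mm10), and 53274 of 53379 matched. Genes passing edgeR's filter by group (17221) were tested in R 4.3.3 with edgeR 4.0.16 (two-sided quasi-likelihood F-test), using TMM scaling, robust shrinkage and Benjamini-Hochberg adjustment over all of them, at a threshold of 0.05. Fold changes are log2 of labelled knockout over wild type, with standard errors from the F statistic. SDs of log2 CPM used a prior count of 0.5. Ratio intervals are exact Poisson 95% intervals. Motifs were searched in the 250 bases before each RefSeq start. The script was tested on simulated data. Alternatives were DESeq2 1.42.0, limma-voom 3.58.1, other scalings and filters, and leaving out each library.

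The members and lists were chosen with earlier results of these data known. Full values were given for the 12 members with the smallest p, the 10 highest per kb and the chemokine receptors, and for the 8 other pathway genes with the smallest p, the 5 highest per kb and binding partners, of which 1 is not reported here. Tnfaip3, Socs3, Fos, Csf3r, the NF-kB subunit genes and the genes named in the ratios were chosen after their values were seen. Of the marker genes, 194 of 195 were found.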

Additional observations from a re-analysis of the deposited data

How the results depend on the processing

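No paired analysis was possible because the groups share no replicate numbers. No member was called in either direction under any alternative except without wild type replicate 1, so the number of members called higher ranged from 0 to 2 with each library left out. The number of members with an unadjusted p under 0.05, 2 with all libraries, ranged from 0 to 15 with each library left out, and was 1 with library totals alone and 4 with no filter on low counts. Over all genes, the number called higher ranged from 1 to 306 and lower from 0 to 15 with each library left out, and was 21 and 7 with DESeq2 and 4 and 1 with no filter. Among the other pathway genes, 0 to 3 were called higher, and without wild type replicate 1 these 3 were Il33, Nfkbiz and Pf4. The median of the members ranged from -0.33 without wild type replicate 4 to 0.78 without replicate 1. Scaling by library totals alone moved the median of all genes from -0.03 to 0.11.

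Signs turned for genes whose fold changes were not called. Under library totals alone these were Ccr2 (0.11), Cxcl16 (0.066) and Il1a (0.091), and under limma-voom Ccl24 (0.32), Cxcl16 (0.11) and Il1a (0.00076). With each library left out, log2 fold changes ranged from -0.018 to 2.999 for Ccl2, -0.0031 to 2.35 for Ccl3, -0.047 to 1.75 for Ccl4, -0.33 to 0.78 for Ccl6, -0.32 to 1.87 for Ccl7, -0.38 to 0.81 for Ccl9, -0.60 to 0.12 for Ccl12 and -0.68 to 1.30 for Ccl24. The ranges were -0.0080 to 3.12 for Cxcl2, -0.33 to 1.39 for Cxcl10, -0.55 to 0.33 for Cxcl16, -0.23 to 1.57 for Cx3cl1, -0.59 to 0.30 for Ccr1, -0.63 to 0.30 for Ccr2, -0.32 to 0.28 for Il1a, -0.025 to 2.62 for Il1b, -0.11 to 1.21 for Tnf and -0.056 to 1.01 for Nfkbia. The cause was not tested. Depth limited Ccl5, Il10 and Il1rn, which were not tested, and Cxcl1, with 0 or 1 count in wild type replicates 3 and 4.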

Other observations

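Pairs of related genes did not keep the same ratio in every library. Il1b over Il1a was 0.150, 0.0400 and 0.00617 in the wild type libraries (replicates 1, 3 and 4) and 0.173, 0.112 and 0.124 in labelled knockout (replicates 5, 6 and 7). Ccl2 over Ccl7, neighbouring monocyte chemokines, was 3.01, 1.45 and 1.79 in wild type and 2.91, 4.22 and 3.10 in labelled knockout. Ccl3 over Ccl4 was 0.595 in wild type replicate 3 and between 0.913 and 1.02 in the other 5 libraries. Cx3cr1 over Cx3cl1, receptor over ligand, was 256, 938 and 1985 in wild type and between 265 and 422 in labelled knockout. These ratios are values with no test.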
